A study of Saccharomyces cerevisiae BY4741 with 9 samples.

Results

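The genes described here encode the 6 subunits of the MCM2-7 helicase of budding yeast. They were chosen by identifier, as the rows of MCM2, MCM3, MCM4, MCM5, MCM6 and MCM7 among the 7130 features of the deposited table, and all 6 were measured. The table holds 3 libraries of wild type (WT) and 3 of a mutant with the scc2-4 allele of SCC2, both in the BY4741 background. Scc2 is part of the loader that places cohesin rings on chromosomes, and scc2-4 is a temperature-sensitive allele; the labels give no growth temperature. Cells of both genotypes grew exponentially in rich medium with a complete supplement. The scc2-4 libraries were made after depletion of ribosomal RNA. WT RNA was made into libraries both with and without depletion, and the WT column names do not say which of these they hold, so a difference of preparation between the genotypes cannot be told apart from genotype in any comparison below.

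Mcm2 to Mcm7 form a ring around DNA that unwinds it ahead of the replication fork. The ring is loaded in an inactive state at origins in G1 by the origin recognition complex, Cdc6 and Cdt1, and is switched on in S phase when Cdc45 and the GINS complex join it under the control of the Cdc7-Dbf4 and cyclin-dependent kinases. In yeast the genes of the family are known to be transcribed as cells leave mitosis and enter G1, through early cell cycle boxes bound by the Mcm1 protein and held down at other times by the repressors Yox1 and Yhp1.

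The promoters were searched for letters of an Mcm1-type site, which are not particular to early cell cycle boxes. The motif, held to the 300 bases before each start codon, was TTNCC, then 6 bases of any kind, then GGNAA, where N is any base. It spans 16 bases, reads the same on both strands and covers the core of an Mcm1-type site. It was present before 4 of the 6 genes, MCM3, MCM5, MCM6 and MCM7, and before 1.15% of the 5981 protein-coding genes searched. MCM7 carried the box at 2 places that abut without overlap, and CDC6, which encodes the loading factor, had the same arrangement. MCM2 and MCM4 had no match in this window or in 500 bases. No match was found in the 300 bases before CLN3 or SWI4, read below as targets of the box. Lack of a match is thus no sign that a gene lacks a working box. The boxes are printed here because 4 of the 6 helicase genes share the motif with CDC6. A part of the box in any change of transcript level was not tested. A match is a description of the letters and not a shown binding site. Each run is read 5′ to 3′ on the gene's own strand from RefSeq R64, the build of sacCer3, with the box in capitals:
MCM3, chrV:86732-86787, plus strand: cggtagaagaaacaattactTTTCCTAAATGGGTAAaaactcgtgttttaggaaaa
MCM5, chrXII:691381-691436, plus strand: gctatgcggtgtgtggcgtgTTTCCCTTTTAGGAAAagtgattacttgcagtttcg
MCM6, chrVII:121050-121105, minus strand: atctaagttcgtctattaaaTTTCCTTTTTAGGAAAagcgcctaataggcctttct
MCM7, chrII:625523-625594, plus strand: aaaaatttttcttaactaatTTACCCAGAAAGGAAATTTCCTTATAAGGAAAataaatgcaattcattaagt
CDC6, chrX:69125-69196, plus strand: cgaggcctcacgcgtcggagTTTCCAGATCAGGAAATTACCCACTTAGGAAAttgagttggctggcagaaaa

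**Figure D1:**
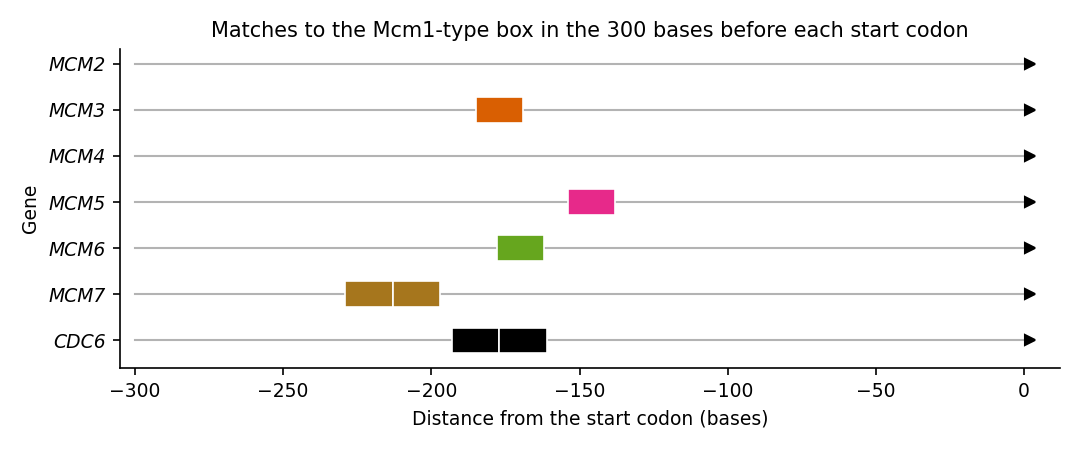
Positions of the 16-base box in the 300 bases before the start codon of each helicase gene and of CDC6; the x axis is the distance from the start codon in bases, the filled blocks are matches and the triangles mark the start codon. MCM7 and CDC6 each hold 2 abutting boxes, MCM3, MCM5 and MCM6 hold 1, and MCM2 and MCM4 hold none.

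Levels are RPKM, reads per kilobase of the gene's span and per 1000000 reads assigned to the table's features. The libraries held 14730000 to 21930000 such reads, and each helicase gene was covered by 1037 to 3633 of them, so that counting alone gives an error of at most 3.11% per value. Across features, WT replicate 1 was the least like its group: its correlation was 0.977 with WT replicate 2 and 0.968 with WT replicate 3 in log2 values, where those libraries reached 0.993 with each other and the mutant libraries at least 0.990. LEU2, MET17 and URA3, which BY4741 lacks, were listed at 0, 0 and at most 0.06 RPKM, HIS3, partly deleted in that strain, at 38.7 to 55.3 RPKM, and STE2, the receptor gene of MATa cells, lay at 248 to 499 RPKM.

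None of the 6 helicase genes passed the test between the genotypes, in a comparison where 32.5% of the 6559 features tested did (limma on log2(RPKM + 1), Benjamini-Hochberg adjusted p under 0.05 over all features). Fold changes are fitted on that scale and understate those of low genes. The background was 17.5% higher and 15.0% lower in scc2-4. The smallest p among the 6 genes was that of MCM3 (unadjusted p = 0.0171, adjusted p = 0.0516, limma). The fitted change was above 0 for 5 of the 6, and for 3555 of the 6559 features tested. The median of the 6 on the log2 scale was 0.26, against 0.047 over all features tested. The upper limits of the 95% intervals ran from 1.13-fold for MCM5 to 1.73-fold for MCM7, so a doubling lies outside the interval of every gene of the family. Leaving out WT replicate 1 took MCM3 past the threshold, and then 1 of 6 passed. The count over all features rose from 2133 to 2442 with that library left out.

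Mcm2 and Mcm5 are the subunits between which the ring opens to admit DNA. MCM2 (YBL023C, sacCer3 chromosome II, 174920 to 177526, minus strand) read 27.0, 33.9 and 34.6 RPKM in WT replicates 1, 2 and 3 and 38.2, 34.3 and 36.3 RPKM in scc2-4 replicates 1, 2 and 3. The genotypes overlapped, and the lowest value was that of WT replicate 1. The fitted change was 1.15-fold (95% interval 0.912 to 1.45; adjusted p = 0.297, limma), and it fell to a log2 change of 0.050 without WT replicate 1.

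MCM5 (YLR274W, chromosome XII, 691555 to 693882, plus strand) read 44.2, 40.9 and 39.1 RPKM in WT and 41.0, 41.5 and 38.8 RPKM in scc2-4. The groups overlapped, and WT replicate 1, low for each of the other 5 genes, held the highest RPKM here. On the centred log2 scale of the test its value, 0.0098, lay below those of WT replicate 2 and scc2-4 replicate 2 (0.018 each). The fitted log2 change was -0.020 with a standard error of 0.0811 (adjusted p = 0.857, limma), and its interval ran from 0.864 to 1.13-fold. Its direction is not resolved: with chromosome IX features left out of the scaling the log2 change was 0.00053.

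Mcm3 is the subunit through which the incoming ring first contacts the origin-bound loader. MCM3 (YEL032W, chromosome V, 86937 to 89852, plus strand) read 35.5, 44.9 and 42.3 RPKM in WT and 51.6, 56.8 and 55.9 RPKM in scc2-4. Every mutant library lay above every WT library. The fitted change was 1.35-fold (95% interval 1.07 to 1.69; log2 change 0.43 ± 0.138, SE), the largest fitted change of the family. This gene lay next to the threshold and its call moved with the setting. Adjusted p was 0.0338 without WT replicate 1, where the log2 change was 0.29, and it ranged from 0.0291 to 0.154 over all alternatives. The annotated gene YEL032C-A lies inside MCM3 on the opposite strand, and use of strand in the counting is not given in the sources used here. It was assigned 6.75% to 8.29% as many reads as MCM3.

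Mcm4, Mcm6 and Mcm7 form a complex that can unwind DNA without the other subunits, and Mcm4 and Mcm6 carry main targets of the Cdc7-Dbf4 kinase. MCM4 (YPR019W, chromosome XVI, 596750 to 599551, plus strand) read 26.9, 31.2 and 32.1 RPKM in WT and 34.0, 34.3 and 36.7 RPKM in scc2-4. MCM6 (YGL201C, chromosome VII, 117854 to 120907, minus strand) read 25.6, 32.1 and 31.5 RPKM in WT and 37.1, 35.3 and 36.6 RPKM in scc2-4. MCM7 (YBR202W, chromosome II, 625772 to 628309, plus strand) read 34.4, 51.4 and 47.2 RPKM in WT and 53.6, 54.0 and 59.6 RPKM in scc2-4. For all 3 genes the mutant libraries lay above the WT libraries without overlap, by the narrowest margin for MCM4 and MCM7, and WT replicate 1 was the lowest library. The fitted changes were 1.17-fold for MCM4, 1.23-fold for MCM6 and 1.28-fold for MCM7, with adjusted p of 0.189, 0.122 and 0.174 (limma). Without WT replicate 1 the log2 changes fell to 0.11, 0.16 and 0.14.

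Across the family, 4 of 6 genes had higher RPKM in every mutant library than in any WT library. Groups did not overlap for 54.5% of the features tested, and 30.9% were higher in this way. These 4 genes were measured in the same libraries and were all lowest in WT replicate 1, so the count is not 4 separate observations.

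**Figure D2:**
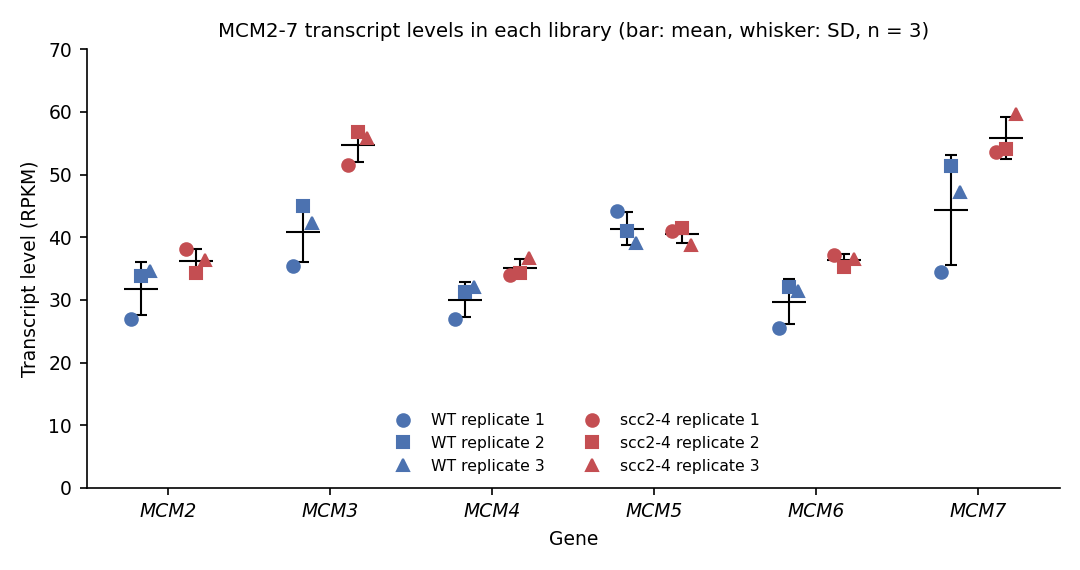
Transcript level in RPKM (y axis) of the 6 helicase genes (x axis) in each of the 3 WT and 3 scc2-4 libraries; points are libraries, horizontal bars are means and whiskers are SDs. WT replicate 1 is the lowest library for every gene but MCM5, and the mutant libraries lie above WT without overlap for MCM3, MCM4, MCM6 and MCM7.

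The subunits stand in equal number in the ring, but their transcripts did not. Per length, MCM7 (44.3 ± 8.85 RPKM, mean ± SD, n = 3), MCM5 (41.4 ± 2.57) and MCM3 (40.9 ± 4.88) were the most abundant in WT, and these neighbours overlapped. MCM2 (31.8 ± 4.17), MCM4 (30.1 ± 2.77) and MCM6 (29.7 ± 3.59) lay below them, and also overlapped with each other. The step from MCM3 down to MCM2 was the only one between neighbours in WT without overlap. Its exact two-sided permutation p was 0.1 (n = 3 libraries), the smallest p that 3 against 3 allows. That test takes neighbours as separate groups and does not use that both genes were measured in the same libraries. Compared within libraries, MCM2 exceeded MCM4 in all 3 WT libraries.

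In scc2-4 the order was MCM7 (55.8 ± 3.36 RPKM), MCM3 (54.8 ± 2.79), MCM5 (40.5 ± 1.44), MCM6 (36.3 ± 0.937), MCM2 (36.3 ± 1.94) and MCM4 (35.0 ± 1.48). MCM7 and MCM3 overlapped, as did MCM6, MCM2 and MCM4, while MCM5 stood between these groups without overlap on either side. The same unpaired exact permutation test gave p = 0.1 for each of these steps (n = 3). Any pair without overlap gives that value, so it adds nothing to the lack of overlap. MCM5 and MCM3, level in WT on average, were thus apart in the mutant. For the log2 ratio of MCM3 to MCM5, WT replicates 1 to 3 gave -0.32, 0.13 and 0.12 and the mutant libraries 0.33, 0.45 and 0.53, all above WT.

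Shares of the summed level put these shifts on a scale that does not depend on how a library is scaled. The sum of the 6 genes was 194, 234 and 227 RPKM in WT and 256, 256 and 264 RPKM in scc2-4. MCM3 made up 18.3%, 19.2% and 18.7% of it in WT and 20.2%, 22.2% and 21.2% in scc2-4, a difference of 2.45 percentage points. MCM5 made up 22.8%, 17.5% and 17.2% in WT and 16.1%, 16.2% and 14.7% in scc2-4, a difference of -3.52 points that was -1.69 points without WT replicate 1. For both genes the groups did not overlap (exact permutation p = 0.1 each, the smallest possible; adjusted over the 6 subunits 0.3). MCM2, MCM4, MCM6 and MCM7 overlapped between genotypes, with differences of -0.52, -0.25, 0.46 and 1.38 points. A design of this size cannot take any of these shares past 0.05.

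WT replicate 1 carried much of the spread within WT. Relative to the WT mean on the centred log2 scale, the family had a median of -0.28 in WT replicate 1 and of 0.14 in each of the other WT libraries. In the mutant libraries the median was 0.26, 0.23 and 0.33. A list of 12 genes of the G1/S transition stood at -0.29, 0.062 and 0.22 in the same WT libraries and a list of 12 genes of the G2/M cluster at -0.090, 0.031 and 0.051. The licensing genes stood at -0.285, 0.12 and 0.16. Not all lists were low in WT replicate 1: regulators and targets of the early cell cycle box stood at 0.060, -0.105 and 0.048. All features tested stood at 0.014, 0.0025 and -0.012. The part of growth state or cell cycle distribution in the helicase values was not tested.

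**Figure D3:**
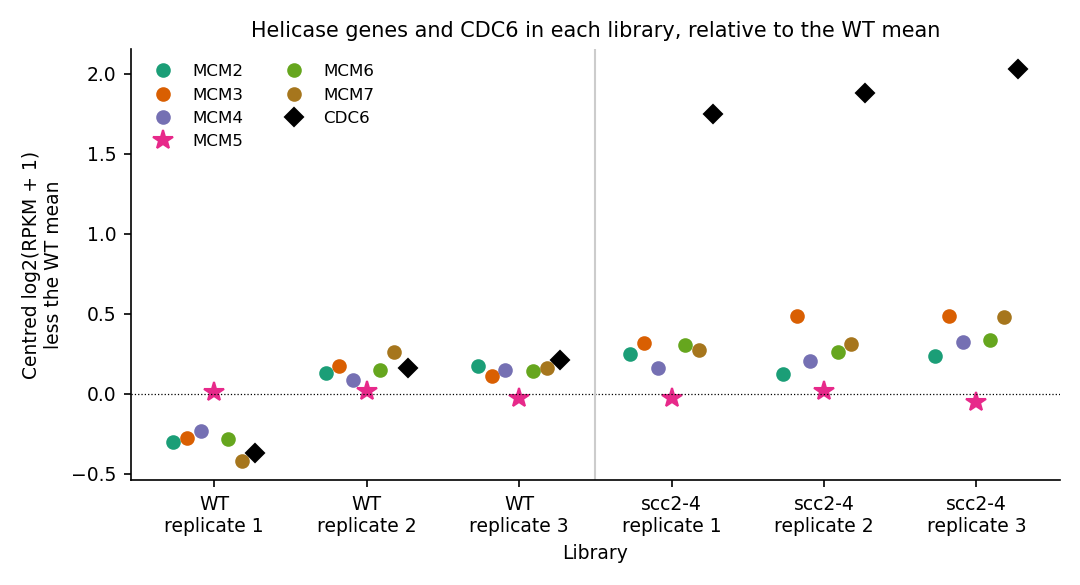
Centred log2(RPKM + 1) less the WT mean (y axis) for the 6 helicase genes and CDC6 in each library (x axis); each point is 1 gene in 1 library. MCM5 stays between -0.050 and 0.018 in every library, the other helicase genes lie at or below -0.23 in WT replicate 1 and between 0.12 and 0.49 in the mutant libraries, and CDC6 lies at 1.75 to 2.03 in the mutant.

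The loading machinery gave a sharp contrast in CDC6. Its transcript read 3.30, 4.72 and 4.85 RPKM in WT and 16.9, 18.1 and 19.9 RPKM in scc2-4. All mutant values exceeded all WT values, and CDC6 rose 3.70-fold (95% interval 2.78 to 4.93; adjusted p = 0.00168, limma). Set against the mean of the 6 helicase genes, its log2 ratio was -3.26, -3.02 and -2.95 in WT and -1.31, -1.21 and -1.11 in scc2-4. In WT replicate 1 CDC6 was low together with the helicase genes. The annotated gene YJL195C overlaps the start of CDC6 on the opposite strand and read 4.16 to 4.52 RPKM in WT and 17.2 to 18.2 RPKM in scc2-4. After every read of YJL195C was taken away, CDC6 kept 32, 73 and 76 reads in WT and 255, 331 and 268 reads in scc2-4.

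Of the 8 licensing genes, 2 rose and 6 did not pass, with a median log2 change of 0.30; the share that rose, 25%, is near the 17.5% of all features. Beside CDC6 the gene that rose was ORC1, which encodes an ATP-binding subunit of the origin recognition complex. ORC1 rose 1.37-fold from 14.5 ± 1.86 to 20.04 ± 1.23 RPKM (adjusted p = 0.0402, limma). ORC2 and ORC3, further subunits of the complex, were at 1.28-fold and 1.27-fold (adjusted p = 0.0826 and 0.111). These were the largest changes among the genes that did not pass. The fitted change was above 0 for 6 of the 8 genes, and for 3555 of the 6559 features tested. Leaving out WT replicate 2, or any mutant library, ended the call on ORC1 (adjusted p = 0.0721 to 0.124, against 0.0244 at the lowest of all alternatives), as did upper quartile centring (0.0507).

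Of 12 genes that activate the loaded ring, 4 rose (33.3%, against 17.5% of all features tested) and 8 did not pass. Their median log2 change was 0.32, and the fitted change was above 0 for 9 of the 12. MCM10, which despite its name is no subunit of the ring and acts when the helicase is switched on, rose 3.28-fold from 4.10 ± 1.02 to 15.4 ± 1.15 RPKM (adjusted p = 0.00254, limma). It lies on chromosome IX, where 174 of 244 features tested were higher in scc2-4 and the median change was 1.76-fold; none of the 6 helicase genes lies there. SLD3, which brings Cdc45 to the ring, rose 1.65-fold from 3.56 ± 0.296 to 6.48 ± 0.434 RPKM (adjusted p = 0.00908). CDC45, whose product becomes part of the active helicase, rose 1.43-fold to 15.9 ± 0.166 RPKM (adjusted p = 0.0432). DBF4, the regulatory subunit of the kinase that phosphorylates the ring, rose 1.33-fold to 22.6 ± 0.588 RPKM (adjusted p = 0.0232) and overlaps YDR053W. SLD2, a partner of Dpb11, and SLD5, a GINS subunit gene, were at 1.43-fold and 1.26-fold (adjusted p = 0.0504 and 0.0598), and SLD2 passed under 7 of 15 alternatives. CDC45 lost its call when any mutant library was left out (adjusted p = 0.103 to 0.129), with upper quartile centring (0.0507) and with no filter (0.0523), and DBF4 when WT replicate 2 or any mutant library was (0.0565 to 0.0928); the lowest values over the alternatives were 0.018 for CDC45 and 0.0187 for DBF4. The count was 6 of 12 without WT replicate 1 and 2 of 12 without each mutant library. Over all features it was 2133 with all libraries, 2442 without WT replicate 1 and 766 to 1039 without a mutant library.

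**Figure D4:**
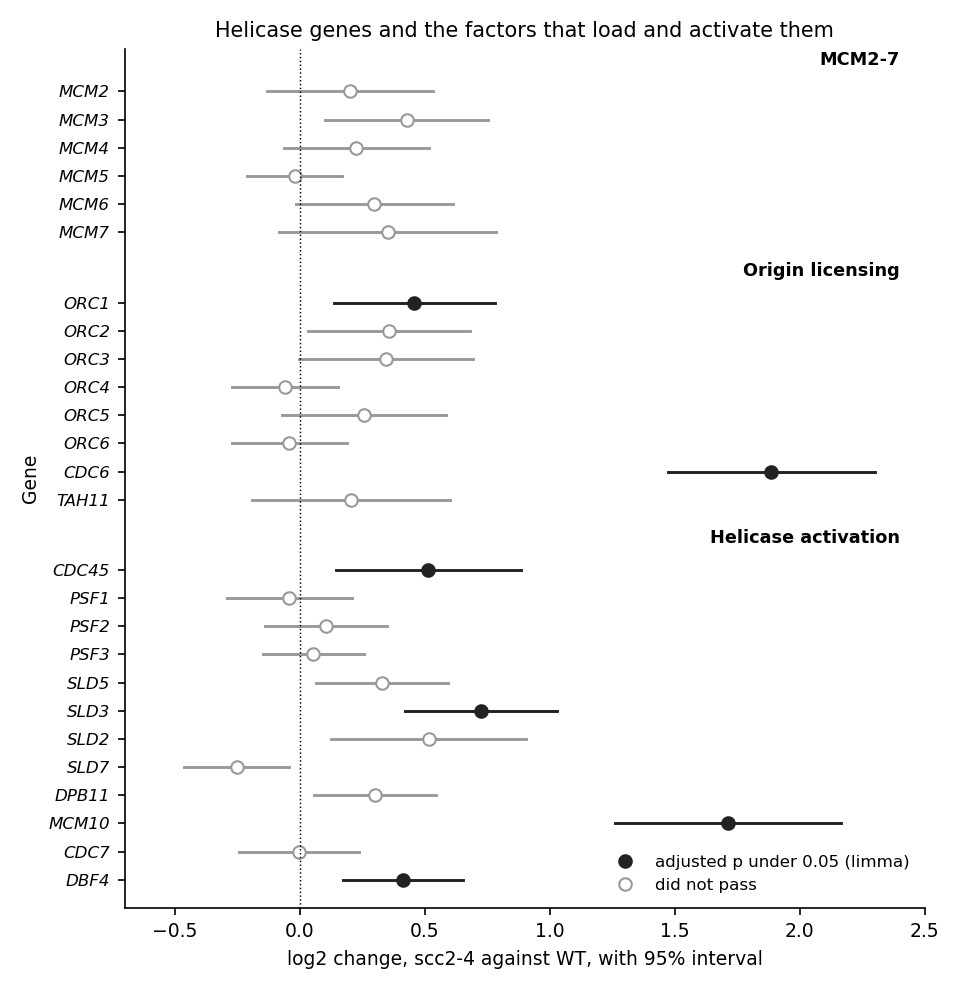
Fitted log2 change in scc2-4 against WT (x axis) with its 95% interval (bars) for the helicase genes and for the genes that load and activate the helicase (y axis), 3 libraries per genotype; filled points passed an adjusted p of 0.05 in limma. None of the 6 helicase genes passed, while CDC6 and MCM10 lie at 1.89 and 1.71.

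Of 8 genes whose products travel with the helicase at the fork, 4 rose and 4 did not pass (median log2 change 0.36). The share that rose was 50%, against 17.5% of all features tested. DPB2 (1.42-fold), POL2 (1.43-fold) and DPB4 (1.26-fold) encode subunits of the leading-strand DNA polymerase epsilon, and CSM3 (1.32-fold) a part of the fork protection complex. Their adjusted p was 0.0228 to 0.0381 (limma). TOF1, the partner of Csm3, was at 1.30-fold (adjusted p = 0.0534), and DPB3, a further polymerase epsilon subunit overlapped by YBR277C, at a log2 change of -0.19 (adjusted p = 0.339). All 4 calls were lost, leaving 0 of 8, when WT replicate 2 or any mutant library was left out. Calls over all features also fell there, from 2133 to 1415 without WT replicate 2 and to 766 to 1039 without a mutant library. Without WT replicate 1, 5 of 8 passed, and 2442 over all features. DPB4 also lost its call with the replicate block (adjusted p = 0.0569) and with limma-voom (0.0514; 0.0284 to 0.109 over all alternatives). Of 4 genes for removal of the helicase from DNA none passed, against 32.5% of all features tested. NPL4 and UFD1, cofactors of the Cdc48 unfoldase, had log2 changes of 0.18 and -0.095 (adjusted p = 0.308 and 0.452), and without WT replicate 1 NPL4 was higher, at 0.31 (adjusted p = 0.0247).

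Regulators and other targets of the early cell cycle box were compared next. Of 6 genes including CDC6, 4 rose (66.7%, against 17.5% of all features tested) and 2 did not pass (median log2 change 0.48). CLN3, which encodes the cyclin that starts the exit from G1, went from 1.73 ± 0.0208 to 3.49 ± 0.344 RPKM, a 1.66-fold rise, and SWI4, which encodes the DNA-binding subunit of the G1/S factor SBF, rose 1.47-fold from 4.70 ± 0.441 to 7.33 ± 0.261 RPKM (adjusted p = 0.0124 and 0.0118, limma). CLN3 lies on chromosome I. YHP1, which encodes a repressor that acts on these boxes, rose 1.31-fold to 13.6 ± 0.0808 RPKM (adjusted p = 0.0278). MCM1, the gene of the factor that binds the box, had a log2 change of -0.18 (adjusted p = 0.233). YOX1, the gene of the other repressor, stood at 2.99 ± 0.760 RPKM in WT and 2.89 ± 0.458 RPKM in scc2-4 (log2 change -0.018, adjusted p = 0.941), and its direction changed without chromosome IX features and with WT replicate 1 or mutant library 1 or 3 left out. SWI4 lost its call when mutant library 2 or 3 was left out (adjusted p = 0.0556 and 0.0569, against 0.00522 at the lowest). This left 2 of 6, while the count over all features fell from 2133 to 781 and 766. YHP1 lost its own with no centring (0.055) and with WT replicate 2, WT replicate 3 or any mutant library left out (0.0514 to 0.1, against 0.00758 at the lowest).

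Genes that hold the 16-base box before their start codon were also read as a list. Of 65 such genes outside the family, 14 were higher (21.5%), 10 were lower (15.4%) and 41 did not pass, against 17.5% and 15.0% of all features tested. Their median log2 change was 0.11. These shares are near the background. The list is set by the motif alone and does not hold CLN3 or SWI4. It holds CDC6, genes of MATa cells such as STE2 and MFA1, and ALK1 and HST3 of the G2/M cluster. Its shares are thus no readout of early cell cycle box genes alone.

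Lists of genes with peaks on either side of the helicase genes' own phase were read beside them. Of 12 genes of the G1/S transition, 10 rose (83.3%, against 17.5% of all features tested) and 2 did not pass. Their median log2 change was 0.67. PCL1 (2.31-fold) and CLN2 (2.23-fold), G1 cyclin genes, CLB5 (1.61-fold), an S phase cyclin gene, and RAD27 (1.56-fold), a flap nuclease gene, had the smallest p-values (adjusted p = 0.00294 to 0.00984, limma). RNR1, the large subunit gene of ribonucleotide reductase, and RFA1, the large subunit gene of replication protein A on chromosome I, did not pass at 1.95-fold and 1.27-fold (adjusted p = 0.084 and 0.212); RNR1 was low in WT replicate 1, at 51.3 RPKM against 123 and 127 RPKM, and passed without it (0.0199). RFA1 read 84.3 RPKM in scc2-4 replicate 1 against 48.0 and 51.1 RPKM in the other mutant libraries, and its log2 change went from 0.35 to 0.11 without that library. With WT replicate 2 or any mutant library left out, 4 to 6 of 12 passed. Over all features, 766 to 1415 passed in these settings, against 2133 with all libraries.

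Of 12 genes of the G2/M cluster, 8 rose (66.7%, against 17.5% of all features tested) and 4 did not pass (median log2 change 0.45). CLB2 rose 1.84-fold and CLB1 1.85-fold (both encode cyclins of mitosis), MOB1, a mitotic exit gene on chromosome IX, 1.82-fold, and IQG1, a cytokinesis gene, 1.38-fold (adjusted p = 0.00690 to 0.00869, limma). ALK1, which encodes a kinase of mitosis, was at 1.26-fold (adjusted p = 0.0608). The count was 5 and 4 of 12 without scc2-4 replicates 2 and 3. Over all features it was then 781 and 766, against 2133 with all libraries.

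The features most like the family over the 6 libraries were sought by the root mean square difference between centred log2 profiles. Nearest to the mean profile of the family were SAC1 (0.0253 on the log2 scale), PEX31 (0.0255), MSH1 (0.0270), SUI2 (0.0326) and DUG2 (0.0331). SAC1 encodes a phosphoinositide phosphatase, PEX31 a peroxisomal membrane protein, MSH1 a mitochondrial DNA repair protein, SUI2 the alpha subunit of translation initiation factor eIF2, and DUG2 a part of a glutathione-degrading complex. These 5 were picked by likeness to the family over the same 6 libraries. Their log2 changes of 0.22 to 0.26 and their lack of a call in limma thus follow largely from that choice. Of the family itself, MCM4 (0.0341) and MCM6 (0.0366) lay nearest the mean profile, followed by MCM2 (0.0583), MCM3 (0.101) and MCM7 (0.108), and MCM5 lay farthest (0.192). Each of these genes is part of that mean, which draws it nearer. Among all features tested, MCM4 ranked 7, MCM6 12, MCM2 62, MCM3 427, MCM7 532 and MCM5 1974 in nearness.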

How the data were processed

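RNA sequencing libraries of WT and scc2-4 yeast were analysed from 1 deposited table of RPKM values. The submitters' processing notes name Bowtie and the sacCer3 build; how reads were counted is not stated there. The RPKM values deposited by the authors, multiplied by the feature's span, summed to 1000000 in each column. Low values were whole multiples of 1 read (100% of values worth up to 100 reads on features under 1.0 kb within 0.1 of a whole read), which gave the reads per library. Of 9 labelled libraries the table holds 6; the others were not analysed here. The p-values measure the spread between these libraries, which the series calls biological replicates. Intervals on reads cover counting error only.

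Values were transformed to log2(RPKM + 1), centred on each library's median, filtered at a mean RPKM of 1 and tested with limma 3.58.1 in R 4.3.3 (trended empirical Bayes), adjusted over 6559 features at 0.05. Fold changes on this scale understate low genes. Identifiers were matched to RefSeq R64 by locus tag (6048 of 7130, 99.8% of them with the same start and end). Promoter windows were read from that genome. Alternatives were a pseudocount of 0.1, no filter, other centrings, left-out features, no trend, limma-voom on whole reads, a replicate block, and each library left out.

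No batch is recorded in the labels. All family members were named. From each partner list the text names up to 4 genes past the threshold with the smallest p and the 2 largest changes that did not pass; 1 gene and 1 list are not reported here. The members and lists were chosen with earlier results of these data known. Python 3.11.15 with pandas 2.3.3 and matplotlib 3.10.9 read the table and drew figures.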

Additional observations from a re-analysis of the deposited data

How the results depend on the processing

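Of 9 alternative settings, 3 brought the count of helicase genes past the threshold from 0 to 1, and the gene was MCM3 each time: no centring (log2 change 0.42, adjusted p = 0.0351), chromosome IX features left out (0.45, 0.0485) and the replicate block (0.43, 0.0291). The setting without overlapping features left MCM3 untested and gave 0. With chromosome IX features left out the log2 change of MCM5 was 0.00053 and that of YOX1 0.00318, both above 0. With single libraries left out, the count of helicase genes ranged from 0 to 1, the log2 change of MCM3 from 0.29 to 0.51 and that of YOX1 from -0.11 to 0.093. The count of features past the threshold, 2133 with all 6 libraries, ranged from 766 to 2442, and that of the 72 partner genes, 33 with all 6 libraries, from 13 to 38; leaving out a library also lowers the power. MCM2, MCM4, MCM6 and MCM7 kept their direction and did not pass in any of the 15 alternatives, with log2 changes of 0.050 to 0.29, 0.11 to 0.30, 0.16 to 0.37 and 0.14 to 0.48. The cause of the other differences was not tested.

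Whether replicate numbers pair the libraries was not resolved. The correlation of same-numbered deviations was 0.305, -0.0622 and 0.353 for replicates 1, 2 and 3. Of 6 libraries, 4 correlated best with their own number. With the replicate number as a block 2341 features passed, 36 partner genes passed, and MCM3 was the only helicase gene past the threshold.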
